A study of Mus musculus with 8 samples.

Results

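The 10 genes described here encode the hypoxia-inducible factors (HIFs), the enzymes that sense oxygen for them, and a pair of genes that HIFs are known to switch on. They were picked by gene symbol alone: Hif1a, Epas1 and Arnt for the factors, Egln1, Egln2 and Egln3 for the prolyl hydroxylases, Hif1an for the asparaginyl hydroxylase, Vhl for the ubiquitin ligase receptor, and Bnip3 and Ddit4 for the targets. Each symbol matched 1 entry, so 10 of the 47706 genes listed were followed. RNA was sequenced from mouse primary calvarial osteoblasts, the bone-forming cells of the skullcap, that had been differentiated for 7 days and then exposed for 24 hours to parathyroid hormone (PTH, 4 samples) or to vehicle (4 samples). According to the study's methods the cells came from newborn mice, were serum-starved before treatment, and received PTH as its amino-terminal peptide in buffered saline. The sample labels speak of adipogenic differentiation where the methods describe osteogenic medium, and they give no strain, genotype or separate culture for each sample, so p-values measure the spread between these samples only, which may be technical.

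A HIF is a pair of proteins, an oxygen-regulated alpha subunit (HIF-1α from Hif1a, HIF-2α from Epas1) and the constant partner ARNT, also called HIF-1β. When oxygen is plentiful, prolyl hydroxylases mark the alpha subunits, the VHL protein binds the mark, and the ligase built around VHL sends them to the proteasome. FIH, the product of Hif1an, adds a hydroxyl group to an asparagine and so keeps the alpha subunits from their coactivators. Much of this control acts on protein, which messenger RNA counts do not show, and in bone the pathway is known for tying osteoblasts to blood vessel growth and to glycolysis.

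The promoters of the genes that the results turn on are shown first, because both HIFs and the cAMP response pathway that PTH activates read short DNA words. RefSeq promoter windows of the GRCm38.p6 build, reaching from 250 bases before the start site to 50 after it, were found for 9 of the 10 genes and for 2 start sites of Egln2, and none for Epas1. The words searched on both strands were the hypoxia response core (ACGTG or GCGTG), the full cAMP response element TGACGTCA and its short form TGACG, which the full element contains. In the stretches below, which lie outside annotated exons and read 5′ to 3′ on the strand of the gene, capitals mark these words on either strand, and overlapping words run together.
Arnt, chr3:95434140-95434289, plus strand, shown for its cAMP response element: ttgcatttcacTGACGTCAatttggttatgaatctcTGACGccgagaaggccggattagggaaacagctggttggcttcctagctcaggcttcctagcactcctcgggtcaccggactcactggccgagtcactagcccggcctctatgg
Ddit4, chr10:59951871-59952020, minus strand, shown for the gene with the largest change: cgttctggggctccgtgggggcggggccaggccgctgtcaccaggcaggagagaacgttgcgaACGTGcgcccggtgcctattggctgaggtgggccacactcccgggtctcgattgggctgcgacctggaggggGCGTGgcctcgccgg
Egln1, chr8:124949355-124949504, minus strand, shown for the prolyl hydroxylase that was lowered: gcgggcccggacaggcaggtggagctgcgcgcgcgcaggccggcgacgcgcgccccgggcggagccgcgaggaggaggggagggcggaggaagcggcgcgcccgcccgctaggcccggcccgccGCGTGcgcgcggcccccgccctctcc
Hif1a, chr12:73907707-73907816, plus strand, shown for the most abundant factor: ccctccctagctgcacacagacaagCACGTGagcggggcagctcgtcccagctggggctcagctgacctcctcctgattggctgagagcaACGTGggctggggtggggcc
Bnip3, chr7:138909557-138909666, minus strand, shown for the target that did not pass the test: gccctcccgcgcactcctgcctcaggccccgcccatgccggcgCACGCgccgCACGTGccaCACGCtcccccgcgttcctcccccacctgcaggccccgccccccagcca

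A full cAMP response element was found in the Arnt window, from -239 to -232 relative to the start site, and in no other window of these genes. Of the 32851 mouse windows in the table, 1.79% hold that word and 20.8% hold the short form, which was also present in the windows of Egln3 and of the downstream Egln2 start. Hypoxia response cores were found in 43.8% of all windows and in those of Hif1a (3 matches), Arnt (1), Egln1 (2), both Egln2 starts (6 and 1), Egln3 (1), Bnip3 (5) and Ddit4 (2). No searched word occurred in the Hif1an and Vhl windows. A match is a run of letters and not a measured binding site. Several of these matches are a palindrome read on both strands, as in Hif1a and Bnip3, and the start site of the Hif1a window lies inside the longer gene model of GENCODE.

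**Figure D1:**
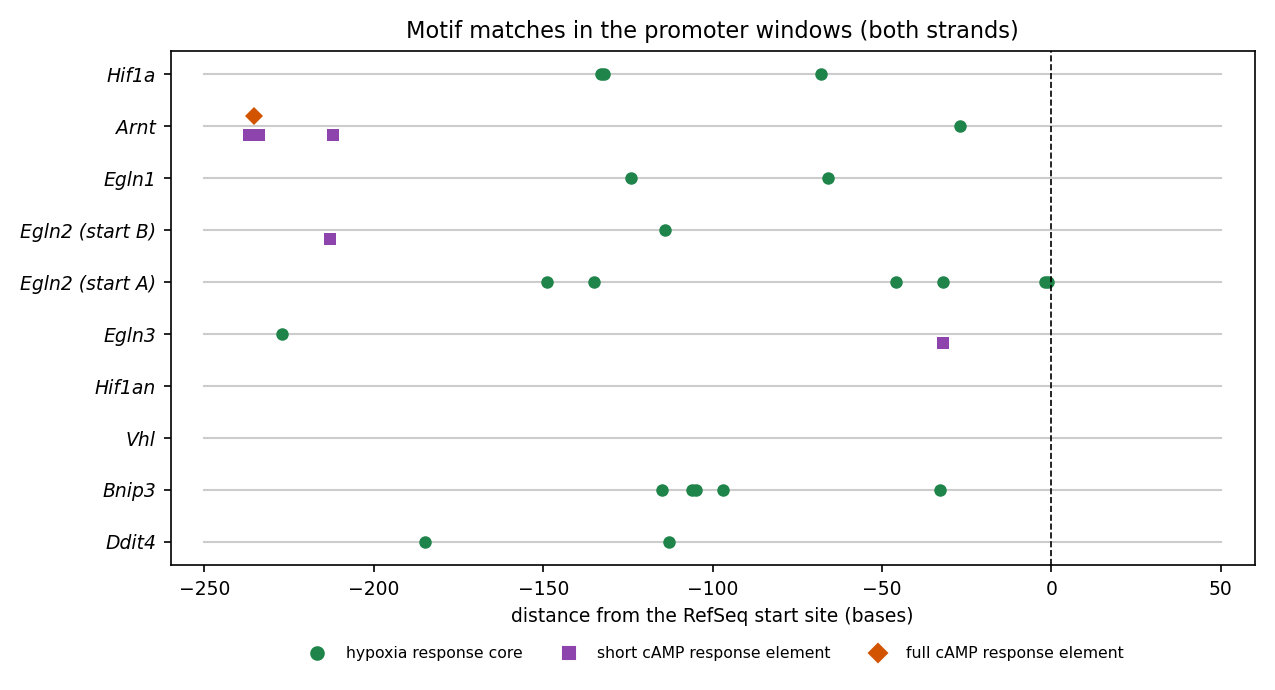
Matches to the hypoxia response core (circles), the short cAMP response element (squares) and the full element (diamond) in the promoter windows, by distance in bases from the RefSeq start site, where the start is 0. Arnt is the only row with a diamond, at -239 to -232, and the rows of Hif1an and Vhl are empty.

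Sequencing gave between 33605610 and 56090654 counts per sample, and 16736 genes passed the filter on low counts and were tested, among them all 10 followed here. Levels are given as CPM, that is, counts relative to each library's size after edgeR's TMM normalization, and changes as the log2 ratio of PTH to vehicle. The labels were checked with Tnfsf11, the RANKL gene and a classical PTH target, which rose from 1.42 ± 0.365 to 128 ± 20.0 CPM (SD, n = 4 in both groups), and with the PTH receptor gene Pth1r, which fell from 136 ± 21.1 to 83.6 ± 11.6 CPM. Summed osteoblast markers ranged from 92880 to 105348 CPM in vehicle and from 86874 to 125506 CPM in PTH samples, with 0 of 11 raised and 3 lowered, whereas 7 tested adipocyte markers together reached 55.5 CPM at most, with 0 raised and 1 lowered. The osteoblast sum rests mainly on Col1a1, Col1a2 and Sparc (vehicle means 44362, 35071 and 16750 CPM). It hardly reflects the 3 lowered markers, Sp7 (log2 fold change -1.78), Dmp1 (-1.12) and Runx2 (-0.33), named after their values were seen. Of 10 endothelial markers only 6 could be tested, with 1 raised and 1 lowered, Emcn had no count in any sample, and their sum stayed between 8.99 and 10.8 CPM. Macrophage and osteoclast markers summed to between 1450 and 1952 CPM in vehicle and between 2080 and 2357 CPM in PTH samples (3 of 10 raised, 0 lowered), and chondrocyte markers to between 411 and 468 CPM and between 481 and 612 CPM (2 of 5 raised, 0 lowered), so both sums moved with treatment. Without Lyz2 the first sum was 691 to 779 and 761 to 910 CPM, and without Col2a1 the second was 187 to 243 and 214 to 257 CPM, with overlap in both. The part of these markers in the results below was not tested. In cultures measured in bulk, fewer cells of a type and less RNA per cell cannot be told apart.

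PTH raised 4 of the 10 genes (Ddit4, Arnt, Hif1an and Epas1) and lowered 2 (Egln1 and Hif1a), and the 4 others (Egln2, Egln3, Vhl and Bnip3) did not pass the test. Across all tested genes 23.3% were upregulated (3907 genes) and 22.5% downregulated (3762 genes) by edgeR's quasi-likelihood test at a Benjamini-Hochberg adjusted p under 0.05. With upper-quartile scaling in place of TMM the split was 3054 up against 5216 down, the median change of all genes moved by -0.11, and 2 of the 4 increases (Epas1 and Hif1an) were no longer called. The CPM values of the groups did not overlap for 5 of the 10 genes, where 43.0% of all tested genes had no overlap. For these 5 (Epas1, Arnt, Egln1, Hif1an and Ddit4) the exact permutation test over samples gave p = 0.0286, the smallest it can give with 4 samples against 4. Groups without overlap always give that value, so it adds nothing to the lack of overlap. The median log2 fold change of the 10 was 0.11, beside -0.00081 over all tested genes, and the median size of the change was 0.23, beside 0.35. Ddit4 is thus the only one of the 10 with a change of 1 or more on the log2 scale.

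**Figure D2:**
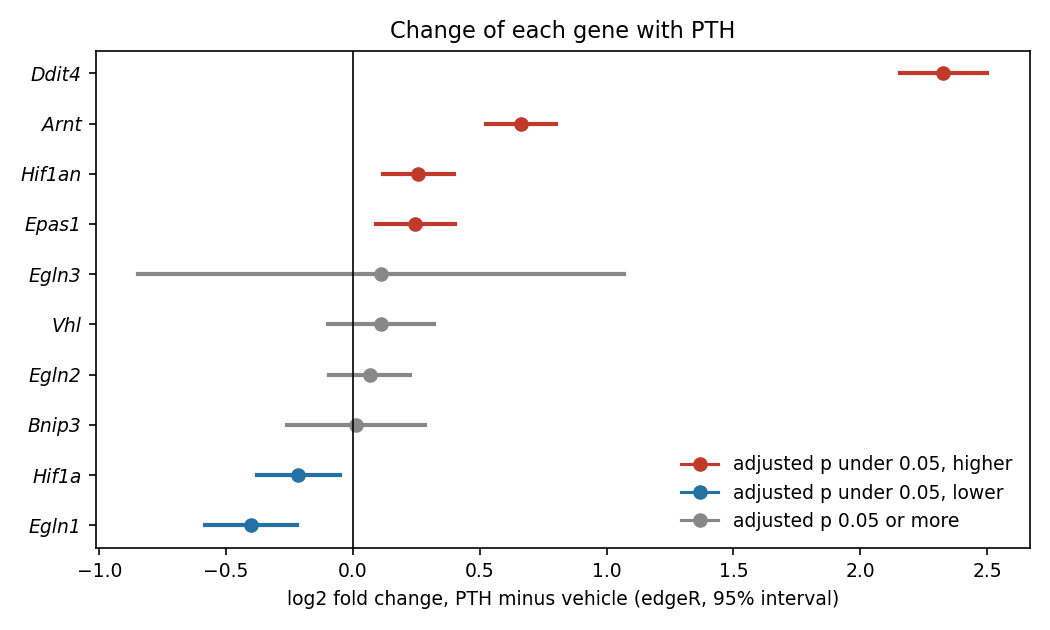
Log2 fold change of each of the 10 genes, PTH minus vehicle, as points with 95% intervals from edgeR (4 samples per group), colored by call. Ddit4 lies apart at 2.33, Arnt follows at 0.66, and Egln1 is lowest at -0.40, while the interval of Egln3 reaches from -0.85 to 1.07.

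Among the factors, Arnt rose and the alpha subunits moved little and in opposite directions. Arnt (entry MSTRG.11377, chr3:95434388-95497240, plus strand, by GENCODE M21 on GRCm38) encodes the partner that both alpha subunits and the aryl hydrocarbon receptor need to bind DNA. It measured 76.9, 88.6, 86.5 and 86.4 CPM in vehicle replicates 1 to 4 and 139.8, 134, 129.8 and 132 CPM in PTH replicates 1 to 4. Every PTH sample stood above every vehicle sample, and vehicle replicate 1 was the lowest of all. The means were 84.6 ± 5.22 and 134 ± 4.28 CPM (SD, n = 4), an increase of 58.4% (log2 fold change 0.66, SE 0.0636, 95% interval 0.52 to 0.80, edgeR adjusted p = 4.40e-06). The increase was called in all 16 refits with other settings, although its size is under a minimum log2 fold change of 1.

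Epas1 (entry MSTRG.8000, chr17:86753700-86833410, plus strand) encodes HIF-2α, the alpha subunit known best from vessels and from erythropoietin control. It measured 69.8, 68.3, 67.6 and 62.3 CPM in vehicle and 79.9, 87.0, 79.6 and 71.4 CPM in PTH samples. The groups did not overlap, although the lowest PTH value and the highest vehicle value were close. Epas1 rose by 18.5%, from 67.0 ± 3.25 to 79.5 ± 6.41 CPM (log2 fold change 0.25, SE 0.0716, 95% interval 0.09 to 0.40, edgeR adjusted p = 0.0143). With upper-quartile scaling the change was 0.13 with an adjusted p of 0.143.

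Hif1a (entry MSTRG.4231, chr12:73901375-73947530, plus strand) encodes HIF-1α. Its levels were 213, 228, 238 and 228 CPM in vehicle and 218, 175, 191 and 195 CPM in PTH samples. PTH replicate 1 lay inside the vehicle range and the other PTH samples below it, so the groups overlapped. Hif1a fell from 226 ± 10.3 to 195 ± 17.6 CPM (log2 fold change -0.22, SE 0.0750, 95% interval -0.38 to -0.05, edgeR adjusted p = 0.0330), while the exact permutation test over the samples gave p = 0.0571. This call was not firm: it held in 7 of the 16 refits, among them 2 of the 8 fits that left out 1 sample. Over those 8 fits the log2 fold change ranged from -0.28 to -0.16 and the adjusted p from 0.00516 to 0.0977. It was lost when PTH replicate 2, 3 or 4 or vehicle replicate 2, 3 or 4 was left out and kept without replicate 1 of either group. Antisense Gm15283 shares 330 of the exon bases of Hif1a and had between 0 and 26 counts, against at least 5825 for Hif1a itself.

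**Figure D3:**
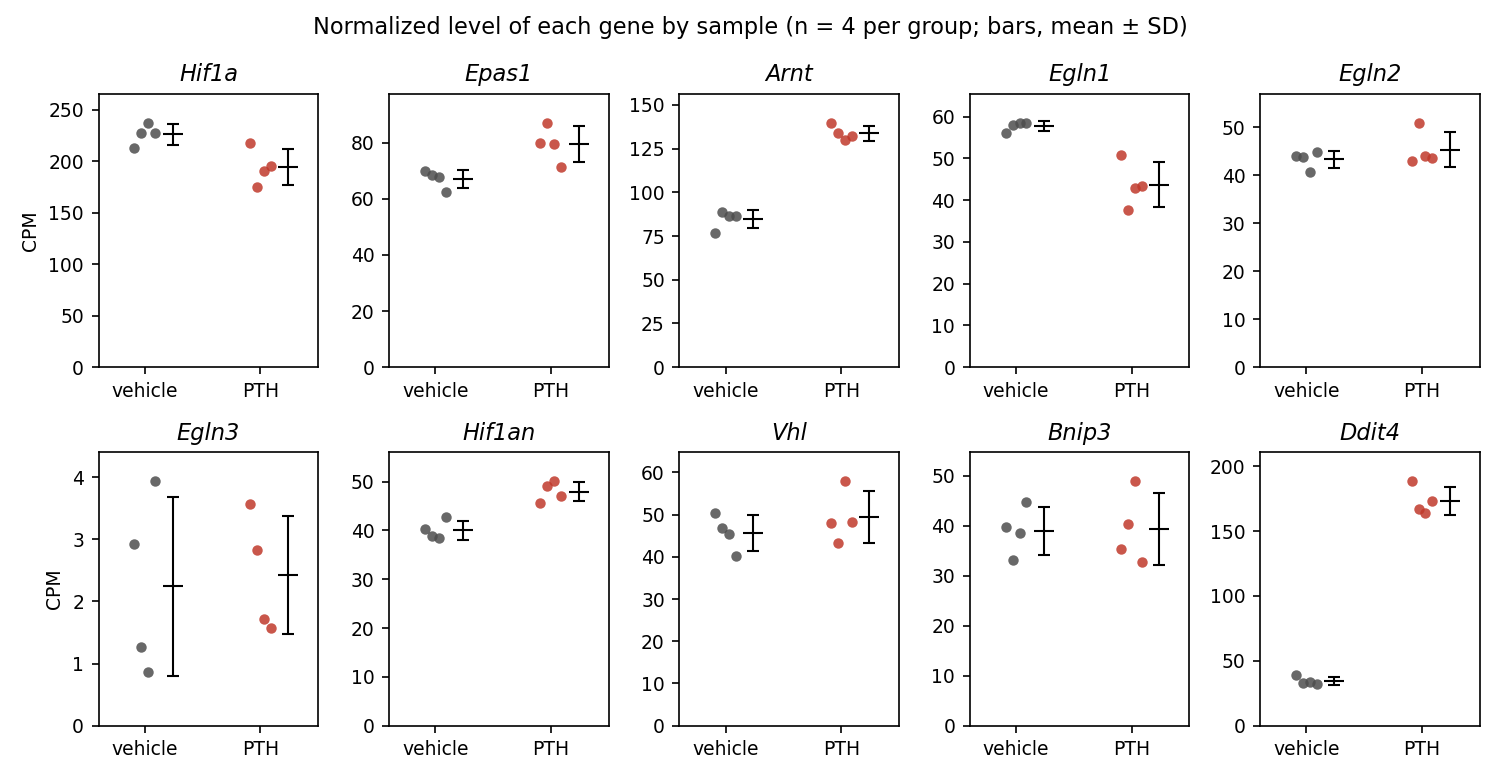
Normalized level of each gene in CPM (vertical axes from 0) in the 4 vehicle (gray) and 4 PTH (red) samples, with bars for mean ± SD. Ddit4 separates most widely, at 32.0 to 39.0 against 164 to 188 CPM, and Arnt, Epas1, Egln1 and Hif1an also do not overlap.

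Per kilobase of exon, Hif1a was the most abundant of the 10 genes in vehicle cultures, with 38.4 ± 1.74 CPM per kilobase. It stood above 93.1% of the 16207 tested genes that had an exon length. Among the factors, Epas1 followed at 12.0 ± 0.582 and Arnt at 10.6 ± 0.652 CPM per kilobase. Of the messages for the alpha subunits, Hif1a made up 74.3 to 77.6% in vehicle and 65.6 to 72.2% in PTH samples, and Epas1 the rest. These shares, which do not depend on scaling between libraries and were not tested, did not overlap between the groups. The summed level of Hif1a and Epas1 was 50.4 ± 1.63 and 47.3 ± 2.71 CPM per kilobase, with overlap, and the ratio of Arnt to that sum was 0.210 ± 0.00938 in vehicle and 0.354 ± 0.0128 in PTH samples. That ratio was chosen after the values were seen, and its groups did not overlap.

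Other subunits of the bHLH-PAS family, to which HIFs belong, moved both ways: of 6 tested, 2 rose and 3 fell (33.3% and 50%, beside 23.3% and 22.5% of all genes). Their median log2 fold change was -0.02. With upper-quartile scaling, and likewise with the replicate block, 1 rose and 3 fell. Arnt2, the paralog that can replace ARNT, measured 68.3, 71.5, 64.3 and 61.4 CPM in vehicle and 40.8, 37.3, 46.2 and 45.9 CPM in PTH samples. Every PTH sample lay below every vehicle sample, and Arnt2 fell from 66.4 ± 4.45 to 42.6 ± 4.27 CPM (log2 fold change -0.64, SE 0.0827, edgeR adjusted p = 5.60e-05). Per kilobase, the ratio of Arnt to Arnt2 was between 1.08 and 1.35 in vehicle and between 2.70 and 3.45 in PTH samples, a ratio also chosen after the values were seen. Hif3a, which encodes an alpha subunit whose short forms oppose the others, had 35, 25, 49 and 16 counts in vehicle but 0, 2, 2 and 3 in PTH samples. Scaled to library size, vehicle exceeded PTH 15.8-fold, with a counting interval of 7.46 to 40.2 that covers counting error only. Npas2, a partner of the clock protein BMAL1, had the largest increase that was called, from 9.17 ± 0.882 to 15.4 ± 3.52 CPM (log2 fold change 0.75, edgeR adjusted p = 0.00126).

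Of the 3 prolyl hydroxylase genes only Egln1 passed the test, and it fell. Egln1 (entry MSTRG.18727, chr8:124908587-124949324, minus strand) encodes PHD2, regarded as the main oxygen sensor for HIF-1α. It measured 56.1, 58.0, 58.5 and 58.5 CPM in vehicle and 50.8, 37.8, 43.0 and 43.3 CPM in PTH samples. The vehicle samples were tightly grouped, and each PTH sample was lower than all of them, replicate 2 the most. The means were 57.8 ± 1.14 and 43.7 ± 5.37 CPM, a change of -24.3% (log2 fold change -0.40, SE 0.0836, 95% interval -0.58 to -0.22, edgeR adjusted p = 0.00193), and the call held in the same 16 refits, while a minimum log2 fold change of 1 would remove it.

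Egln2 (entry MSTRG.16340, chr7:27158658-27166802, minus strand) encodes PHD1. It measured 44.1, 43.8, 40.7 and 44.8 CPM in vehicle and 43.1, 51.0, 44.0 and 43.6 CPM in PTH samples. Only PTH replicate 2 stood outside the vehicle range. The log2 fold change was 0.07 with a 95% interval of -0.09 to 0.22 (edgeR adjusted p = 0.490). No change was called, and a change within that interval remains possible.

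Egln3 (entry MSTRG.4122, chr12:54178981-54203860, minus strand) encodes PHD3, which is itself known as a strongly hypoxia-induced gene. It was the scarcest of the 10, with 41 to 195 counts per sample. Its levels were 2.92, 1.26, 0.855 and 3.93 CPM in vehicle and 3.57, 2.83, 1.72 and 1.57 CPM in PTH samples. The groups overlapped, and the spread within each was wide, with a coefficient of variation of 64.1% in vehicle and 39.2% in PTH samples. The log2 fold change of 0.11 has a 95% interval from -0.85 to 1.07 (SE 0.439, edgeR adjusted p = 0.856). No change was called, and a change anywhere within that wide interval remains possible.

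By share of the prolyl hydroxylase messages per kilobase, Egln1 and Egln2 were near equal in vehicle cultures, at 49.7% ± 1.97 and 47.8% ± 0.896, and Egln3 made up 2.56% ± 1.58. In PTH samples Egln1 took 41.5% ± 4.45 and Egln2 55.4% ± 4.62. Egln1 had the larger share in 3 of 4 vehicle samples and Egln2 in every PTH sample, and neither share overlapped between groups. Which gene is larger depends on the merged exon lengths used, 3594 bases for Egln1 and 2800 for Egln2. In CPM, without division by length, Egln1 was above Egln2 in every vehicle sample and in PTH replicate 1 (50.8 against 43.1). The summed level of the 3 genes was 32.4 ± 1.07 CPM per kilobase in vehicle and 29.3 ± 1.27 in PTH samples, also without overlap. These sums and shares are descriptions and were not tested.

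**Figure D4:**
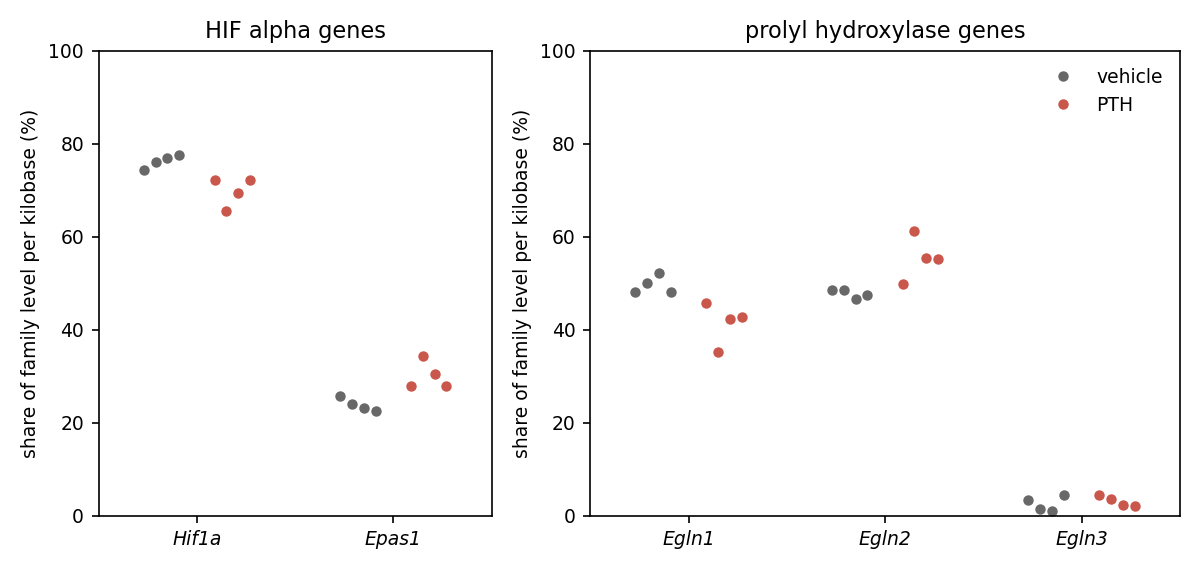
Share (%) of each gene in the summed level per kilobase of its family in the 4 vehicle (gray) and 4 PTH (red) samples, for the HIF alpha genes (left) and the prolyl hydroxylase genes (right). Hif1a lies at 74.3 to 77.6% in vehicle and 65.6 to 72.2% in PTH samples, and Egln1 moves from 48.1 to 52.3% to 35.3 to 45.8%.

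Hif1an (entry MSTRG.8974, chr19:44562850-44576274, plus strand), the gene for FIH, rose modestly. It measured 40.3, 38.9, 38.5 and 42.8 CPM in vehicle and 45.7, 49.1, 50.1 and 47.0 CPM in PTH samples. Both groups were narrow and did not overlap. The increase was 19.6% (log2 fold change 0.26, SE 0.0644, 95% interval 0.12 to 0.40, edgeR adjusted p = 0.00599). It was 0.15 with an adjusted p of 0.0869 under upper-quartile scaling.

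Vhl (entry MSTRG.15715, chr6:113623959-113631633, plus strand), the gene for the receptor that recognizes hydroxylated alpha subunits, did not pass the test. It measured 50.5, 46.8, 45.5 and 40.1 CPM in vehicle and 48.0, 43.3, 57.9 and 48.3 CPM in PTH samples. The groups overlapped, with PTH replicate 3 the highest. The log2 fold change was 0.11 with a 95% interval of -0.10 to 0.32 (edgeR adjusted p = 0.376).

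Most genes for the ligase built around VHL rose: of 6 tested, 5 rose (83.3%, beside 23.3% of all genes) and 0 fell (beside 22.5%), with a median log2 fold change of 0.29. Tceb1, the gene for elongin C, which joins VHL to the cullin, rose from 44.3 ± 2.57 to 70.7 ± 11.4 CPM (log2 fold change 0.67, edgeR adjusted p = 2.36e-04). Cul2, the cullin scaffold, rose from 41.7 ± 4.35 to 65.8 ± 4.13 CPM (log2 fold change 0.66, edgeR adjusted p = 4.91e-05). Smaller increases were measured for the elongin B gene Tceb2 (0.34), the ubiquitin-conjugating enzyme gene Ube2d2a (0.23) and the cullin modifier gene Nedd8 (0.19), with edgeR adjusted p of 0.00813, 0.00818 and 0.0201. The RING subunit gene Rbx1 had a log2 fold change of 0.09 (edgeR adjusted p = 0.268). With upper-quartile scaling only 2 of the 6, Tceb1 and Cul2, were called, and the call of Nedd8 held in only 8 of the 16 refits. It was also lost with no filter on low counts, with the replicate block, with the transcript length offset, and without PTH replicate 3 or vehicle replicate 1, 2 or 3. Nedd8 and Ube2d2a share stretches of near-identical sequence with the counted genes Gmpr2 and Gm9762, so part of their counts is uncertain.

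Of the HIF targets among the 10, Ddit4 rose and Bnip3 did not pass the test. Ddit4 (entry MSTRG.1774, chr10:59949669-59951834, minus strand) encodes REDD1, a stress-induced inhibitor that restrains mTORC1 through the TSC complex. It measured 39.0, 33.1, 34.0 and 32.0 CPM in vehicle and 188, 167, 164 and 174 CPM in PTH samples. The lowest PTH sample was far above the highest vehicle sample. Ddit4 rose 5.02-fold (95% interval 4.45 to 5.66), from 34.5 ± 3.08 to 173 ± 10.9 CPM, with a log2 fold change of 2.33 (SE 0.0792, edgeR adjusted p = 3.61e-10). It was called in all 16 refits and is also past a minimum log2 fold change of 1. Per kilobase it moved from above 85.9% to above 96.7% of the tested genes that had an exon length. It passed Hif1a as the most abundant of the 10, at 98.7 ± 6.21 against 33.1 ± 2.99 CPM per kilobase.

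Bnip3 (entry MSTRG.17587, chr7:138890836-138909519, minus strand) encodes a mitochondrial outer membrane protein that marks mitochondria for autophagy. It measured 39.8, 33.1, 38.6 and 44.7 CPM in vehicle and 35.4, 40.4, 48.9 and 32.7 CPM in PTH samples. The PTH range enclosed the vehicle range. Its log2 fold change was 0.01 with a 95% interval of -0.26 to 0.28 (edgeR adjusted p = 0.951). An increase of the size seen for Ddit4 lies outside that interval. Bnip3 shares long near-identical stretches with several copies, of which Gm16439 and Gm9419 were listed with 4 counts at most, so its own count is somewhat uncertain. Antisense Gm45507 overlaps 504 of its exon bases (22.3%), and since the strand setting of the counting is not given in the sources used here, reads from that stretch cannot be assigned to 1 of these genes.

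In vehicle cultures the genes after Hif1a were Ddit4 (19.7 ± 1.75), Bnip3 (17.2 ± 2.10), Egln1 (16.1 ± 0.317), Egln2 (15.5 ± 0.650) and Vhl (15.3 ± 1.43 CPM per kilobase), and each of these overlapped with its neighbor. Epas1, Arnt, Hif1an (6.07 ± 0.294) and Egln3 (0.843 ± 0.540 CPM per kilobase) followed, each apart from the next. In PTH samples Bnip3 (17.4 ± 3.15), Arnt (16.7 ± 0.535), Vhl (16.5 ± 2.05), Egln2 (16.2 ± 1.33), Epas1 (14.2 ± 1.15) and Egln1 (12.2 ± 1.49 CPM per kilobase) formed 1 run of overlapping neighbors. Ddit4 and Hif1a stood above that run, and Hif1an (7.26 ± 0.302) and Egln3 (0.910 ± 0.356 CPM per kilobase) below it.

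Among 17 genes of the TSC and mTORC1 machinery and its stress regulators, 2 rose and 10 fell (11.8% and 58.8%, beside 23.3% and 22.5% of all genes), with a median log2 fold change of -0.30. With upper-quartile scaling 1 rose and 12 fell, with a median of -0.41, and with the replicate block 1 rose and 8 fell. Ddit4l, the paralog with a like action on mTORC1, went down furthest among them, from 31.0 ± 2.12 to 11.2 ± 1.02 CPM (log2 fold change -1.47, edgeR adjusted p = 7.44e-08). Per kilobase, Ddit4 was 1.85 ± 0.0592 times Ddit4l in vehicle and 26.0 ± 4.07 times in PTH samples, a ratio chosen after the values were seen. Rheb, the GTPase that activates mTORC1, rose from 76.5 ± 4.07 to 102 ± 3.98 CPM (log2 fold change 0.41, edgeR adjusted p = 1.76e-04). The sestrin genes, named after their values were seen, encode further brakes on mTORC1, and all 3 fell: Sesn1 by 1.16, Sesn3 by 0.58 and Sesn2 by 0.48 on the log2 scale, with edgeR adjusted p of 2.93e-07, 4.39e-05 and 1.68e-04. The other lowered genes, also named after their values were seen, were Tbc1d7 (-0.49), Deptor (-0.49), Mlst8 (-0.33), Rps6kb1 (-0.31), Eif4ebp1 (-0.30) and Akt1s1 (-0.19). Their edgeR adjusted p were 0.00167, 0.00487, 0.0103, 0.00266, 0.0265 and 0.0201, in that order. Mlst8 encodes an mTORC1 subunit and Rps6kb1 the S6 kinase, so the decreases fell mostly but not only on brakes. The activity of mTORC1 was not measured. Tsc1, Tsc2 and Mtor, named likewise, had log2 fold changes of -0.16, -0.0016 and 0.16 and did not pass the test.

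Of 16 genes that act with BNIP3 in mitophagy, 8 rose and 2 fell (50% and 12.5%, where all genes gave 23.3% and 22.5%), with a median log2 fold change of 0.17, and with upper-quartile scaling 7 rose and 4 fell. Ulk1, the kinase that starts autophagy, had the largest increase, from 61.7 ± 4.78 to 112 ± 7.89 CPM (log2 fold change 0.86, edgeR adjusted p = 1.96e-06). Bcl2, whose protein binds BNIP3, fell from 11.8 ± 1.63 to 5.52 ± 0.427 CPM (log2 fold change -1.09, edgeR adjusted p = 1.97e-05). Bnip3l, the paralog also called NIX, measured 110.3 ± 5.31 and 105.9 ± 9.67 CPM and, like Bnip3, did not pass the test (log2 fold change -0.06, edgeR adjusted p = 0.553). A near-identical copy, Bnip3l-ps, drew 298 to 583 counts of its own.

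Further HIF targets outside glycolysis spread widely: of 35 tested, 18 rose and 6 fell (51.4% and 17.1%, where all genes gave 23.3% and 22.5%), with a median log2 fold change of 0.41. With upper-quartile scaling 16 rose and 7 fell, with a median of 0.30. Bhlhe40, a transcriptional repressor, rose from 27.9 ± 4.12 to 266 ± 29.1 CPM (log2 fold change 3.26, edgeR adjusted p = 5.69e-10). Adm, which encodes the vasodilator adrenomedullin, fell in all PTH samples, from 14.5 ± 0.309 to 1.62 ± 0.297 CPM (log2 fold change -3.16, edgeR adjusted p = 3.02e-09). Vegfa, the main angiogenic factor, was named after its values were seen and rose from 31.6 ± 7.07 to 123 ± 25.3 CPM (log2 fold change 1.96, edgeR adjusted p = 1.63e-06). Nos2 and Epo had too few counts to be tested. Many of these genes also answer to other pathways, and the list carries no information on which factor acted.

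Of 22 glycolytic HIF targets, 10 rose and 2 fell (45.5% and 9.09%, where all genes gave 23.3% and 22.5%), with a median log2 fold change of 0.19, and with upper-quartile scaling 8 rose and 4 fell, with a median of 0.07. Hk2, the inducible hexokinase, rose from 12.5 ± 2.23 to 138.8 ± 8.62 CPM (log2 fold change 3.47, edgeR adjusted p = 3.43e-10). Hk1, the constitutive hexokinase, fell from 89.5 ± 2.47 to 64.6 ± 2.62 CPM (log2 fold change -0.47, edgeR adjusted p = 3.89e-05). Without vehicle replicate 4, in which many glycolytic genes were high, 13 rose and 2 fell with a median of 0.40, and the other targets gave 19 and 4 with a median of 0.40. Both counts without that sample were chosen after its values were seen.

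Of 13 coactivators and modulators of HIF, 5 rose and 2 fell (38.5% and 15.4%, where all genes gave 23.3% and 22.5%), with a median log2 fold change of 0.13, and with upper-quartile scaling 3 rose and 3 fell. Cited4 rose from 0.461 ± 0.212 to 24.6 ± 5.78 CPM (log2 fold change 5.73, edgeR adjusted p = 7.14e-09). Cited2, which competes with HIF-1α for the coactivators p300 and CBP and is itself induced by HIF-1, fell from 49.5 ± 3.55 to 16.1 ± 0.869 CPM (log2 fold change -1.62, edgeR adjusted p = 7.76e-09). Of 23 further enzymes that use oxygen and 2-oxoglutarate or act as thiol dioxygenases, 8 rose and 7 fell (34.8% and 30.4%, where all genes gave 23.3% and 22.5%). Their median was -0.02, and with upper-quartile scaling 5 rose and 9 fell. Tet2 and Tet1, both oxidizers of methylated cytosine, marked the extremes, with Tet2 rising from 18.2 ± 1.41 to 41.5 ± 10.2 CPM (log2 fold change 1.18, edgeR adjusted p = 4.60e-05) and Tet1 falling from 24.0 ± 0.849 to 7.78 ± 1.06 CPM (log2 fold change -1.63, edgeR adjusted p = 1.17e-07). Over the 8 lists 136 different genes were tested, of which 57 rose (41.9%, beside 23.3% of all genes) and 32 fell (23.5%, beside 22.5%), with a median log2 fold change of 0.13. With upper-quartile scaling 42 of them rose and 42 fell, with a median of 0.019.

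**Figure D5:**
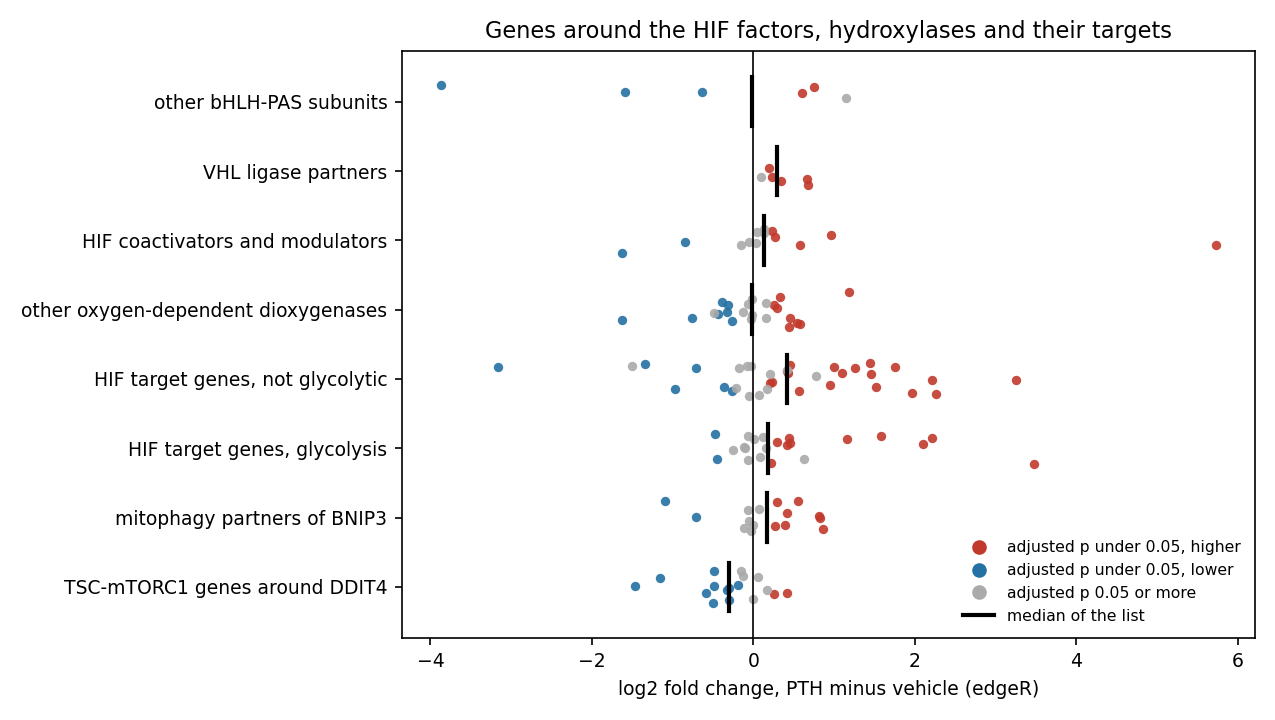
Log2 fold change, PTH minus vehicle, of the tested genes of 8 lists around the 10 genes (1 point per gene, colored by edgeR call, black bars for list medians). The mTORC1 list has its median at -0.30 and the HIF targets outside glycolysis theirs at 0.41, and the leftmost point of the top row, Hif3a, rests on at most 3 counts per PTH sample.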

How the data were processed

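Counts per gene and sample were deposited by the authors as whole numbers without scaling: per the study's methods, poly(A) libraries were aligned to GRCm38 (mm10) with HISAT2, assembled with StringTie2, and counted by its companion script from transcript coverage. The annotation version and strand setting are not given in the sources used here. Groups came from the sample labels. Counts were tested with edgeR 4.0.16 in R 4.3.3 (genes kept by filterByExpr at count 10 and total 15, TMM, two-sided quasi-likelihood F-test of treatment alone), with Benjamini-Hochberg adjustment over 16736 genes and calls under 0.05. Single genes were also compared by two-sided exact permutation tests on log2(CPM + 0.1), whose smallest p is 0.0286 for 70 assignments. Merged exon lengths came from GENCODE M21, and similar transcripts from blastn 2.17.0 (at least 150 bases at 95% identity). A merged length joins all annotated exons of a gene, so orders between genes per kilobase could differ for the transcripts present. Both count models were first tested on simulated data. Alternatives were DESeq2 1.42.0, other scalings, filters and offsets, leaving out each sample, and a replicate block. Totals of 33605610 to 56090654 counts set the precision. Intervals on counts cover counting error only.

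The members, lists and tests were chosen with earlier results of these data known. Named were all members, their paralogs, the VHL ligase partners, and the called gene with the largest and the smallest change of each list; others are said to be named after their values were seen. Proteins were not analysed here.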

Additional observations from a re-analysis of the deposited data

Results flagged for a closer look

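Egln2 measured 51.0 CPM in PTH replicate 2, while the other PTH samples lay between 43.1 and 44.0 CPM. The gap to the nearest sample took 0.886 of the range of the group, above Dixon's limit for 4 samples. Each of the 10 genes was checked in both groups, 20 checks in all, of which chance alone would pass about 1 in 20. This was the only value past the limit.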

How the results depend on the processing

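No setting reversed a member that was called, and the increases of Arnt and Ddit4 and the decrease of Egln1 were called in all 16 refits (a minimum log2 fold change of 1 left Ddit4 alone, so 1 member up and 0 down, and 1232 and 650 of all genes). Upper-quartile scaling called 2 members up in place of 4. A single decrease (1 in place of 2) was called with DESeq2 size factors (Hif1a adjusted p = 0.0559), with an offset for transcript length (0.135) and with the replicate number as a block (0.0749), and between 1 and 2 when 1 sample was left out. DESeq2 itself called 4 up and 2 down. Replicate numbers gave no sign of pairing the samples, as deviations of same-numbered samples correlated at -0.041 to 0.027 over genes. That check cannot exclude a pairing, because all genes weighed the same whatever their counts. The replicate block lowered the calls over all genes to 3571 up and 3432 down. Directions of uncalled members turned with upper-quartile scaling (Egln2 to -0.047, Egln3 to -0.0063, Vhl to -0.0019, Bnip3 to -0.10) and, for Bnip3, with no filter on low counts (-0.029). Leaving out 1 sample gave -0.16 to 0.53 for Egln3, below 0 without PTH replicate 1 or vehicle replicate 2 or 3. The value of 0.53 came without vehicle replicate 4, where Egln3 was still not called (edgeR adjusted p = 0.359). For Bnip3, leaving out 1 sample gave -0.12 to 0.088, below 0 without PTH replicate 3 or vehicle replicate 2. A pseudocount of 1 changed no permutation call. The causes were not tested. Counts were lowest for Egln3 among the members (41 to 195 per sample).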

Other observations

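Vehicle replicate 4 held the highest vehicle value for 18 of the 22 glycolytic HIF targets (81.8%), beside 25.4% of all tested genes, 14 of 35 other HIF targets (40.0%) and 4 of the 10 members. This was looked at after the values were seen. Gapdh measured 46.3 CPM there and 8.81, 8.38 and 8.80 CPM in the other vehicle samples, P4ha1, a collagen prolyl hydroxylase, 444 CPM against 226 to 276 CPM, and Egln3 3.93 CPM against 0.855 to 2.92 CPM. The vehicle mean of Gapdh was 18.1 CPM. Tpi1 and Pgk1, the genes for the steps before and after it in glycolysis, had vehicle means of 168 and 129 CPM. Whether the Gapdh entry holds all reads of that gene was not tested, so its level and its difference between samples are uncertain. Among PTH samples, replicate 1 held the highest value for 15 of the 22 (68.2%), beside 29.9% of all tested genes. Labels give no batch that sets these samples apart.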
